A study of Mus musculus with 30 samples.

Results

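Glycolysis and glycogen genes were followed in the quadriceps of HSA-LR mice, a model of myotonic dystrophy type 1 (DM1), per animal and across 8 treatment groups. The 39 genes were taken by name from the 56748 genes of the count table: the enzymes of glycolysis and lactate formation, the enzymes and regulators of glycogen, the glucose and lactate carriers, the enzymes that set fructose 2,6-bisphosphate or run against glycolysis, and both glycerol phosphate shuttle enzymes. All 39 were found and all 39 were among the 17518 genes that passed the filter on low counts, 38 of them with at least 1 count in every library. The exception was Aldoc, the brain-type aldolase.

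The series holds 30 poly(A) RNA-seq libraries of quadriceps. HSA-LR20b mice carry a human skeletal actin transgene, driven by the actin gene's own muscle promoter, whose transcript holds an expanded CUG repeat, so the model bears on skeletal muscle and not on the other organs that DM1 affects. Every group other than wild-type carried this transgene, the untreated controls included. Wild-type FVB/N mice (WT) gave 5 libraries and untreated HSA-LR mice (NT) 8. The labels do not number the mice, so each library is taken as 1 animal here, and whether any share an animal is not known. L9 is a short antisense oligonucleotide with locked nucleic acid bases that is complementary to the CUG repeat, and pacDNA-L9 is L9 joined to a bottlebrush polymer. The labels give an age of 8 weeks for every group, WT and NT included. Treated HSA-LR mice were injected by tail vein at 8 weeks of age. For pacDNA-L9 the low dose was 5.3 mg/kg in 4 mice, the middle dose 21.2 mg/kg in 3 and the high dose 42.4 mg/kg in another 3. L9 alone at 5.3 mg/kg went to 3 mice, the bare polymer (Brush, 40 nmol) to 2, and a scrambled sequence on the polymer (pacDNA-Scr, 5.3 mg/kg) to 2. Muscle was taken 2 weeks after the last injection. The middle and high doses were reached by repeated injections, so the amount given and the number of injections cannot be told apart.

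Skeletal muscle stores glucose as glycogen and breaks it down when it contracts. Glycogen synthase and the branching enzyme build the polymer, glycogen phosphorylase takes it apart under the control of phosphorylase kinase, and phosphoglucomutase links its product to glycolysis. Glycolysis then splits each hexose into pyruvate, which is reduced to lactate or enters the mitochondria. Fast fibres rely on this route most, and many of its steps have a muscle isozyme and a form found in other tissues.

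Total counts ran from 13605309 to 26956558 per library, with a median of 20141850.5. The libraries carried fast fibre transcripts throughout: the summed level of 8 fast glycolytic fibre markers was 129800 ± 16910 CPM (read counts scaled for library size; SD, n = 5) in WT against 254 ± 82.7 for 8 slow fibre markers. The library numbers in the labels restart once and so give a first set of 24 libraries and a second set of 6 (NT 7, NT 8, low dose C, low dose D, middle dose C and L9 C). In 5 of these 6, all except L9 C, the 37 mitochondrial genes are listed at 0. Library L9 B stood apart with 22.3% of its counts on mitochondrial genes. The 3 high dose animals were all female by their counts, and their libraries were named by group and number alone, as were 6 others. A fit with this naming as a covariate is given where it changed a call.

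Because L9 binds CUG repeats, uninterrupted runs of at least 3 CTG units were sought in the canonical transcript of each gene (GENCODE vM39, build GRCm39, transcript strand only). The motif searched was CTGCTGCTG. Such a run was present in 6 of 39 members (15.4%) and in 2591 of the 17419 tested genes with a transcript (14.9%). Sites of these members are shown with their flanking bases, 5′ to 3′, with the repeat run in capitals.
Slc2a4, coding sequence, chr11:69835613-69835624, minus strand: accgtggctCTGCTGCTGCTGgaacgggtt
Aldoa, coding sequence, chr7:126396641-126396649, minus strand: ctaccgccagCTGCTGCTGactgcagacg
Pfkfb1, 5′ UTR, chrX:149377575-149377583, plus strand: ccctgcctacCTGCTGCTGtggccacggc
Slc16a3, coding sequence, chr11:120848761-120848769, plus strand: ctcccttgtgCTGCTGCTGggcaacttct
Pfkfb3, 5′ UTR, chr2:11506575-11506583, minus strand: ccggggggatCTGCTGCTGctcttctccc
Pfkfb3, 3′ UTR, chr2:11478197-11478205, minus strand: ggccaagtgtCTGCTGCTGtatgcctcat
Pfkl, 3′ UTR, chr10:77823154-77823162, minus strand: cttacgtgagCTGCTGCTGggtccatcct
A match is a description of the letters and not of binding. The expanded transgene itself is a human sequence and was not searched.

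Together the 39 genes took 5.55 ± 0.16% of all counts in WT (SD, n = 5) and 5.75 ± 0.79% in NT (n = 8). The share was 4.90 ± 0.52% at the low, 5.05 ± 0.72% at the middle and 5.66 ± 0.34% at the high dose of pacDNA-L9 (n = 4, 3 and 3). L9 held both the lowest library, L9 B at 2.94% (Wilson 95% interval 2.93 to 2.95%, counting error only), and the highest, L9 A at 6.97%. The second set lay lower than the first, at 4.58 ± 0.19% over 6 libraries against 5.66 ± 0.77% over 24. The part of this set in the lower shares at the low and middle doses was not tested. All these shares leave out the near-identical copies of Gapdh described below. In NT 7 those copies held 606567 counts beside 969364 on the members, and in WT 1 39168 beside 1014889. The shares therefore depend on where Gapdh reads were listed, and the order of the sets with the copies counted in was not tested.

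Levels can be set side by side between genes only per length, here as CPM per kb of canonical transcript. As counted, Aldoa, the muscle aldolase that splits fructose 1,6-bisphosphate, stood first in WT at 10970 ± 776 CPM per kb (n = 5). This was about 3 times the next gene. Eno3, muscle enolase, followed at 3671 ± 125, then Pgam2, muscle phosphoglycerate mutase, at 2883 ± 434, and Pygm, muscle glycogen phosphorylase, at 2467 ± 272. Pgam2 and Pygm did not differ beyond their spread. Ldha, which makes lactate, had 2022 ± 169 CPM per kb, Pkm (pyruvate kinase) 1471 ± 101, Tpi1 (triose phosphate isomerase) 1295 ± 147 and Pfkm (muscle phosphofructokinase) 777 ± 114. At the low end stood Fbp2 at 10.4 ± 2.82, Slc2a1 at 2.17 ± 0.28, Pgm2 at 1.04 ± 0.38 and Aldoc at 0.14 ± 0.13 CPM per kb. The order in NT began with the same 4 genes.

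**Figure D1:**
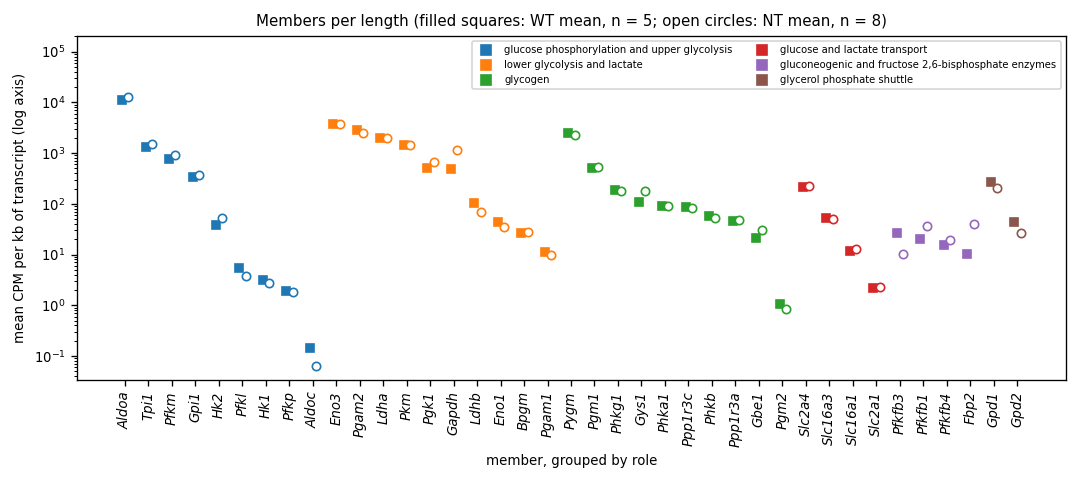
Levels of the 39 genes per length in WT (squares, mean of 5 animals) and NT (circles, mean of 8), on a log axis of CPM per kb of canonical transcript, grouped by role. Aldoa, Eno3, Pgam2 and Pygm lie highest, Aldoc lies lowest, and Fbp2 shows a wide gap between the groups, 10.4 in WT and 40.5 in NT. The place of Gapdh is not known, since its counts could not be read.

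Where the members held different forms for a step, the muscle form made up most of their sum. Forms outside the member list were not counted in these shares, and steps with a single member have none. Averaged over all 30 libraries, Pgm1 made up 99.8% of phosphoglucomutase CPM per kb, Pgam2 99.6% of phosphoglycerate mutase, Pfkm 99.2% of phosphofructokinase, Eno3 99.0% of Eno1 and Eno3, Slc2a4 (the insulin-responsive glucose carrier GLUT4) 98.8% of both glucose carriers, Ldha 95.3% of lactate dehydrogenase and Hk2 93.9% of hexokinase. The lactate carriers were the least one-sided: Slc16a3, the exporter MCT4, averaged 79.2% of both carriers and ran from 40.6% to 93.4%.

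The highest genes varied little between WT animals. Aldoa measured 15270, 15480, 16670, 17770 and 17650 CPM in WT and 12700 to 24070 in NT (median 18450). Eno3 measured 6606, 6117, 6423, 6584 and 6222 CPM in WT and 4451 to 8274 in NT (median 6582). Pygm measured 7129, 8005, 7779, 7177 and 5959 CPM in WT and 4792 to 7972 in NT (median 6797). All WT values lay within the NT range apart from WT 2 for Pygm, and the lowest NT value of each gene was that of NT 7, of the second set. Among carriers, Slc2a4 measured 392, 596, 578, 635 and 637 CPM in WT and 467 to 751 in NT (median 587), WT 1 lying below the others. Library L9 B was the lowest of all 30 for Aldoa (6809 CPM), Eno3 (2934 CPM), Pygm (3777 CPM) and Slc2a4 (126 CPM).

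Gapdh, the dehydrogenase that follows triose phosphate isomerase, could not be read in these counts. It had 32.8 to 1251 CPM in the first set (median 740), 413 in L9 C and 3796 to 4566 in the other 5 libraries of the second set. The genome holds 73 annotated genes that match its transcript at 95% identity or more over at least 300 bases, and these copies summed to 1207 to 3432 CPM, 17480 CPM and 25410 to 34090 CPM in the same libraries. They took 67.5 to 98.4% of the sum of Gapdh and copies, so most of that sum was listed under the copies. The sum itself was 1787 to 4482 CPM in the first set and 29200 to 38380 CPM in those 5 libraries. NT against WT gave a log2 fold change of +1.24 (95% interval -0.61 to 3.08) for Gapdh, which spans both sets.

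**Figure D2:**
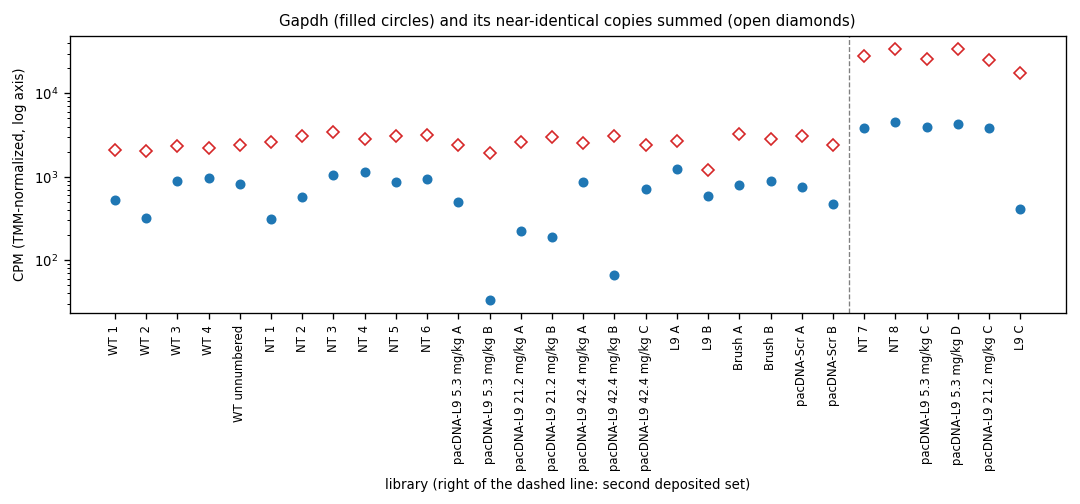
CPM of Gapdh (filled circles) and summed CPM of its 73 near-identical copies (open diamonds) in each of the 30 libraries, on a log axis. Libraries right of the dashed line are those of the second set. In 5 libraries of the second set both values stand apart, with Gapdh between 3796 and 4566 CPM and the copies between 25410 and 34090 CPM.

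The sets also differed in genes that overlap members on the other strand. Tlcd3b, opposite Aldoa, had 16.6 to 99.3 CPM in the first set and 2782 to 3940 in the second. Ruvbl2, opposite Gys1, had 14.1 to 33.3 against 59.95 to 73.7 CPM, Gm16537, opposite Gpd1, 0 to 0.15 against 139 to 211 CPM, and Sumf2, opposite Phkg1, 6.62 to 17.2 against 102 to 143 CPM. For 5 members (Gapdh, Pgam2, Phkg1, Slc16a3 and Gpd1) at least 50% of the transcript lies under exons of the other strand, and the strand setting of the counting is not given in the sources used here, so their levels are less certain. Aldoa also shares 86.1% of its transcript with exons of Gm57854 on its own strand, which had 52.1 to 163 CPM.

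The first comparison, NT against WT, asks what the repeat transgene itself goes with. A gene was called where its adjusted p in edgeR's quasi-likelihood test (Benjamini-Hochberg over 17518 genes) was under 0.05. Of the 39 members, 4 were called, 3 higher and 1 lower in NT, against a background of 4.97% of all tested genes (3.44% higher and 1.54% lower). The called genes were Fbp2, Gys1, Pfkfb1 and Gpd2, none of them a step of the main glycolytic line. The median log2 fold change of the members was -0.0029, beside 0.026 for all genes tested. At an unadjusted p under 0.05 stood 8 members, where the background was 21.5%.

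Fbp2, muscle fructose 1,6-bisphosphatase, which runs against phosphofructokinase, rose most (ENSMUSG00000021456, chr13:62984691-63006552, minus strand). It measured 17.5, 18.2, 22.0, 19.6 and 9.50 CPM in WT and 42.3 to 115 in NT (median 63.3). Every NT animal lay above every WT animal. The group means were 17.4 ± 4.71 (SD, n = 5) and 67.6 ± 24.7 CPM (n = 8), a 3.89-fold rise (log2 +1.96, SE 0.26, adjusted p = 1.5e-05, edgeR).

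Gys1, muscle glycogen synthase, also rose (ENSMUSG00000003865, chr7:45084175-45106058, plus strand). It measured 353, 420, 374, 419 and 451 CPM in WT and 518 to 816 in NT (median 672). The groups did not overlap. The rise was 1.66-fold (log2 +0.73, SE 0.14, adjusted p = 0.0015, edgeR). Groups without overlap were seen for these 2 members and for 4.72% of all tested genes.

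Pfkfb1 codes for a bifunctional enzyme that makes and breaks down fructose 2,6-bisphosphate, the activator of phosphofructokinase (ENSMUSG00000025271, chrX:149371225-149426874, plus strand). It measured 26.8, 39.04, 33.5, 40.8 and 49.3 CPM in WT and 46.4 to 83.4 in NT (median 70.7). The unnumbered WT animal lay above 2 NT animals, and all others were apart. The rise was 1.79-fold (log2 +0.84, SE 0.17, adjusted p = 0.0029, edgeR).

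Gpd2, the mitochondrial enzyme of the glycerol phosphate shuttle, which carries reducing power from glycolysis to the respiratory chain, fell (ENSMUSG00000026827, chr2:57127515-57260734, plus strand). It measured 184, 332, 300, 280 and 157 CPM in WT and 122 to 195 in NT (median 149). WT 1 and the unnumbered WT animal lay within the NT range, and the other 3 WT animals well above it. The log2 fold change was -0.73 (SE 0.17, adjusted p = 0.0095, edgeR), and without WT 2 the call was lost (-0.61, adjusted p = 0.0547). The values of Fbp2, Gys1, Pfkfb1 and Gpd2 by animal show this unequal spread.

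**Figure D3:**
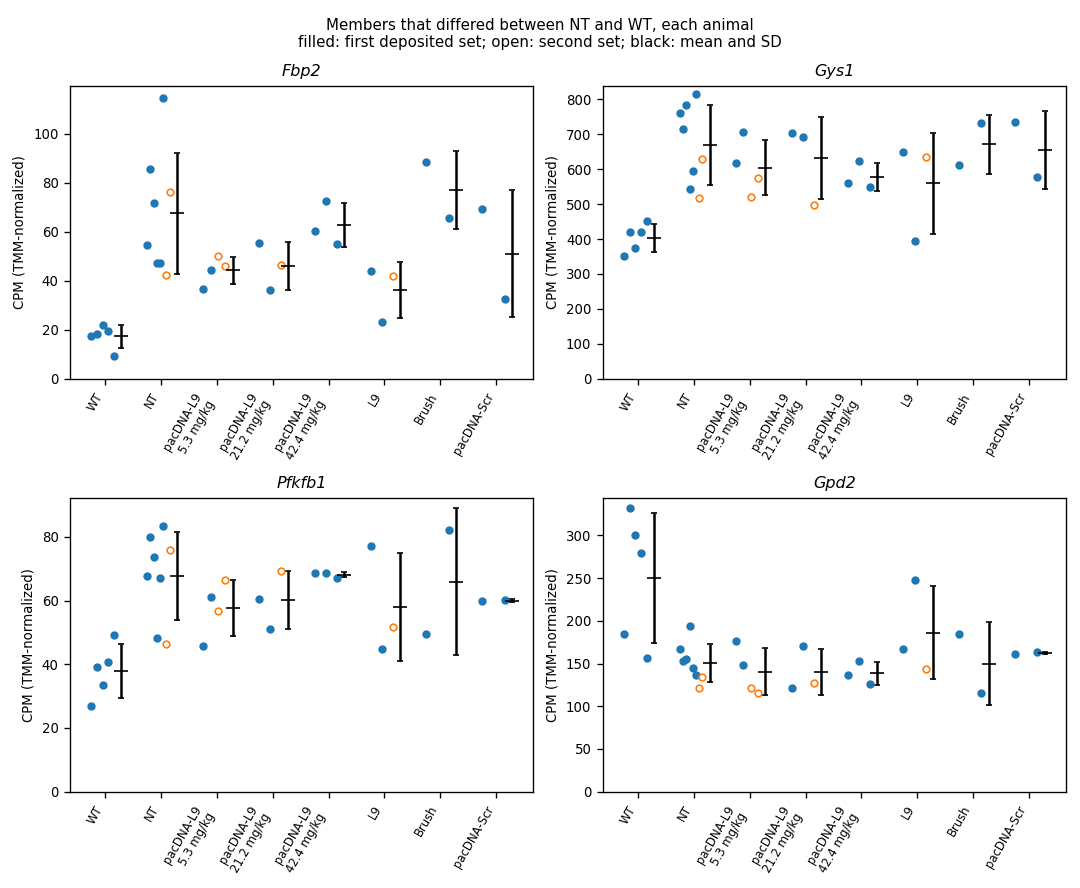
CPM per animal of Fbp2, Gys1, Pfkfb1 and Gpd2 in the 8 groups, with filled points for the first set, open points for the second and bars for the mean ± SD. WT stands below every NT animal for Fbp2 (9.50 to 22.0 against 42.3 to 115 CPM) and Gys1, and 3 WT animals stand above all NT animals for Gpd2.

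The steps of upper glycolysis had no call among 9 members. Hk2, the insulin-responsive hexokinase, came nearest: it measured 264, 288, 320, 333 and 271 CPM in WT and 327 to 510 in NT (median 402). Only WT 4 and NT 7 crossed. Its log2 fold change was +0.47 (SE 0.14, adjusted p = 0.061, edgeR), and in the first set alone, without NT 7 and NT 8, it passed (adjusted p = 0.0352). Pfkm differed by +0.23 (95% interval -0.12 to 0.57) and Aldoa by +0.21 (-0.23 to 0.65) on the log2 scale.

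Lower glycolysis and lactate formation had no call among 10 members. Ldha differed by -0.0029 (95% interval -0.30 to 0.30), Eno3 by +0.03 (-0.33 to 0.38) and Pkm by -0.06 (-0.36 to 0.24) on the log2 scale. Pgk1, phosphoglycerate kinase, stood at +0.35 (adjusted p = 0.228, edgeR). Ldhb, the heart-type subunit, had a wide interval, -1.43 to 0.20 around -0.61.

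Of the 10 glycogen genes Gys1 alone was called. Gbe1, the branching enzyme (ENSMUSG00000022707), measured 44.4, 72.0, 62.1, 78.5 and 67.7 CPM in WT and 65.9 to 117 in NT (median 96.2). The groups overlapped through WT 2, WT 4, the unnumbered WT animal, NT 1 and NT 2, and the log2 fold change of +0.52 did not pass (SE 0.19, adjusted p = 0.134, edgeR). The phosphorylase Pygm differed by -0.10 (95% interval -0.42 to 0.21) and the phosphorylase kinase subunits Phka1, Phkb and Phkg1 by -0.04, -0.13 and -0.08. Pgm1 differed by +0.08 and the phosphatase subunits that target glycogen, Ppp1r3a and Ppp1r3c, by +0.02 and -0.06.

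None of the 4 carriers was called, with log2 fold changes from -0.07 to 0.15. Of the 4 enzymes around fructose 2,6-bisphosphate and fructose 1,6-bisphosphatase, Fbp2 and Pfkfb1 were called. Pfkfb3, a form with high kinase activity, was the highest of the 4 per length in WT. It measured 97.4, 184, 182, 204 and 74.9 CPM in WT and 26.0 to 85.1 in NT (median 60.3). The unnumbered WT animal lay within the NT range and the other 4 lay above it, with a log2 fold change of -1.35 that did not pass (SE 0.53, adjusted p = 0.163, edgeR). Pfkfb4 differed by +0.33 (95% interval -0.25 to 0.90). Of the shuttle enzymes, cytosolic Gpd1 measured 926, 771, 758, 916 and 474 CPM in WT and 374 to 889 in NT (median 592), with log2 -0.40 (adjusted p = 0.237, edgeR).

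Markers of fibre type and of other cells moved between the same groups. The sum of the fast oxidative fibre markers Myh1 and Myh2 ran from 3598 to 9290 CPM in WT and from 5875 to 26640 in NT, and of the 2 genes Myh1 was called higher. None of the 8 fast glycolytic markers was called (sums 101100 to 144700 and 105500 to 170500 CPM), nor any of 8 slow fibre markers (sums 160 to 383 and 82.7 to 1593 CPM). Of the slow fibre estimates 7 of 8 lay above 0 (median log2 1.05). Of 6 tested Schwann cell and nerve markers 3 were lower (sums 75.9 to 208 and 36.2 to 78.6 CPM), of 8 satellite cell and regenerating fibre markers 2 were higher (56.8 to 127 and 77.2 to 163 CPM), and of 7 tested macrophage markers 1 was higher (38.0 to 61.2 and 45.2 to 78.4 CPM). None of 8 endothelial markers was called, although all 8 estimates were lower in NT (median log2 -0.44) and the sums were 286 to 487 CPM in WT and 212 to 336 in NT. Of 8 adipocyte markers none was called (sums 527 to 1241 CPM in WT and 283 to 2345 in NT), with 1 estimate above 0. No list was at 0 in either group. Their part in the members' differences was not tested, and in whole muscle fewer cells of a type and less RNA per cell cannot be told apart.

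**Figure D4:**
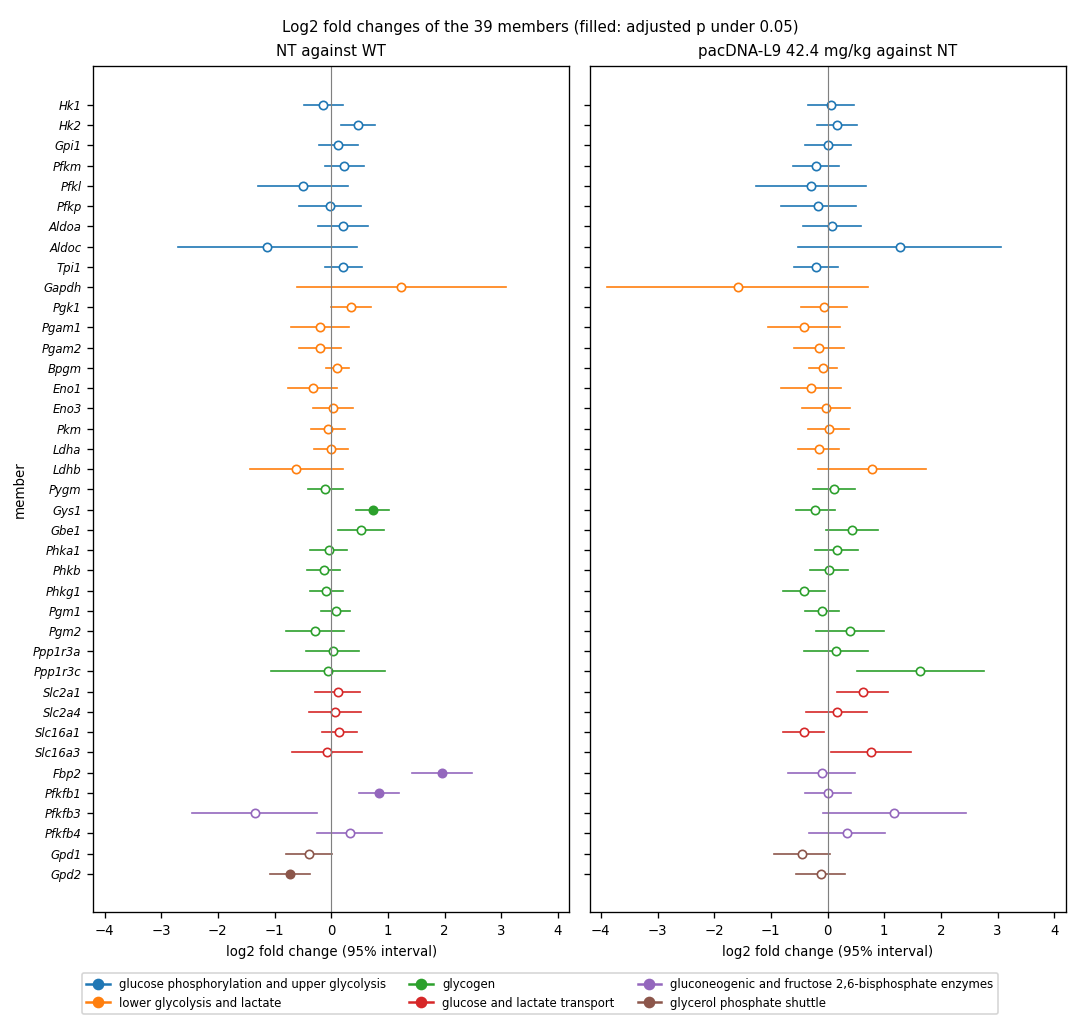
Log2 fold change of each of the 39 genes with its 95% interval, first between NT and WT and then between the high dose of pacDNA-L9 (42.4 mg/kg) and NT, with filled points where the adjusted p was under 0.05. Filled points appear for Fbp2, Gys1, Pfkfb1 and Gpd2 in the first comparison and for no gene in the second, and Gapdh and Aldoc have the widest intervals.

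The treated groups were then each compared with NT, which asks whether L9, its carrier or both go with a change in the diseased muscle. All of these comparisons share the 8 NT animals. None of the 39 members was called in any of them in the fit of all groups. At the low dose the background of called genes was 0%, and 3 members had an unadjusted p under 0.05 where 1.43% of all genes did. At the middle dose the background was 0.0514%, with 1 member at an unadjusted p under 0.05 beside 1.66% of all genes. At the high dose it was 2.57%, with 5 members beside 13.1%. For L9 it was 0.126%, with 2 members beside 9.37%, for Brush 0%, with 0 members beside 1.24%, and for pacDNA-Scr 0%, with 0 members beside 1.04%.

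The 4 genes called between NT and WT had no call at any dose. Fbp2 measured 36.9, 44.6, 50.1 and 46.1 CPM at 5.3 mg/kg, 55.6, 36.3 and 46.4 at 21.2 mg/kg and 60.5, 72.8 and 55.3 at 42.4 mg/kg. It measured 44.0, 23.2 and 42.0 CPM with L9, 88.4 and 65.9 with Brush and 69.4 and 32.7 with pacDNA-Scr. All 17 treated animals lay above the highest WT animal, L9 B by the least. The log2 fold changes against NT were -0.60 at the low dose (95% interval -1.14 to -0.07, adjusted p = 0.9995, edgeR), -0.89 for L9 (adjusted p = 0.351) and -0.10 at the high dose (95% interval -0.69 to 0.48, adjusted p = 0.914). L9 A lay within the NT range, L9 C just below its lowest animal and L9 B well below it. By group mean the order was Brush, NT, high dose, pacDNA-Scr, middle dose, low dose, L9 and WT, and apart from L9 and WT the ranges of neighbours in that order overlapped.

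Gys1 measured 616, 706, 519 and 574 CPM at 5.3 mg/kg, 704, 693 and 497 at 21.2 mg/kg and 560, 623 and 548 at 42.4 mg/kg. It measured 649, 393 and 635 CPM with L9, 612 and 731 with Brush and 734 and 577 with pacDNA-Scr. Only L9 B fell within the WT range. At 42.4 mg/kg the log2 difference from NT was -0.21 (95% interval -0.55 to 0.12).

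Pfkfb1 measured 45.9, 61.02, 56.8 and 66.6 CPM at 5.3 mg/kg, 60.4, 51.0 and 69.3 at 21.2 mg/kg and 68.6, 68.7 and 67.2 at 42.4 mg/kg. It measured 77.3, 44.8 and 51.9 CPM with L9, 49.5 and 82.2 with Brush and 59.8 and 60.3 with pacDNA-Scr. The animals at the highest dose lay close together near the NT median, with a log2 difference of 0.01 (95% interval -0.40 to 0.42).

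Gpd2 measured 176, 148, 122 and 116 CPM at 5.3 mg/kg, 121, 171 and 128 at 21.2 mg/kg and 137, 153 and 126 at 42.4 mg/kg. It measured 167, 248 and 144 CPM with L9, 184 and 116 with Brush and 162 and 163 with pacDNA-Scr. L9 B was the only treated animal above the NT range. The log2 difference at 42.4 mg/kg was -0.12 (95% interval -0.55 to 0.31).

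At 5.3 mg/kg the other members at an unadjusted p under 0.05 were Bpgm, which makes the haemoglobin regulator 2,3-bisphosphoglycerate, at -0.28, and Phka1 at -0.35. At 21.2 mg/kg Bpgm stood at -0.29. The members' median log2 fold change was -0.16 at the low and -0.17 at the middle dose, beside 0.03 and 0.01 for all genes. It was 0.00 at the high dose, -0.14 with L9, 0.00 with Brush and -0.04 with pacDNA-Scr.

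At 42.4 mg/kg the widest shift was that of Ppp1r3c, a phosphatase subunit that targets glycogen and favours its synthesis. It measured 552, 1363 and 635 CPM at that dose, 102 to 619 in NT (median 258) and 315, 217, 184, 170 and 536 in WT. Only NT 7, at 619 CPM, exceeded the lowest animal of this dose. The log2 difference was +1.64 (SE 0.54, adjusted p = 0.131, edgeR), and it passed in 4 of 14 alternative fits, among them the first set alone (+1.80, adjusted p = 0.013). Without animal B it was +1.12 (adjusted p = 0.693). At 5.3 mg/kg the same gene measured 96.5, 163, 93.1 and 786 CPM, animal D standing far above the others.

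Slc2a1, the basal glucose carrier GLUT1, measured 13.4, 18.1 and 16.3 CPM at 42.4 mg/kg and 7.81 to 13.2 in NT (median 10.2), with no overlap. Its log2 difference was +0.62 (SE 0.22, adjusted p = 0.166, edgeR). Slc16a1, the lactate carrier MCT1, measured 39.1, 45.9 and 48.4 CPM against 53.8 to 65.7 in NT (median 60.3), again with no overlap, at -0.42 (SE 0.18, adjusted p = 0.309). These 2 were the members without overlap, against a background of 7% of tested genes. Slc16a3, the lactate exporter, measured 290, 664 and 270 CPM against 179 to 314 in NT (median 248), where only animal B lay outside the NT range (+0.77, adjusted p = 0.343). Phkg1 stood at -0.41 (adjusted p = 0.315, edgeR).

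**Figure D5:**
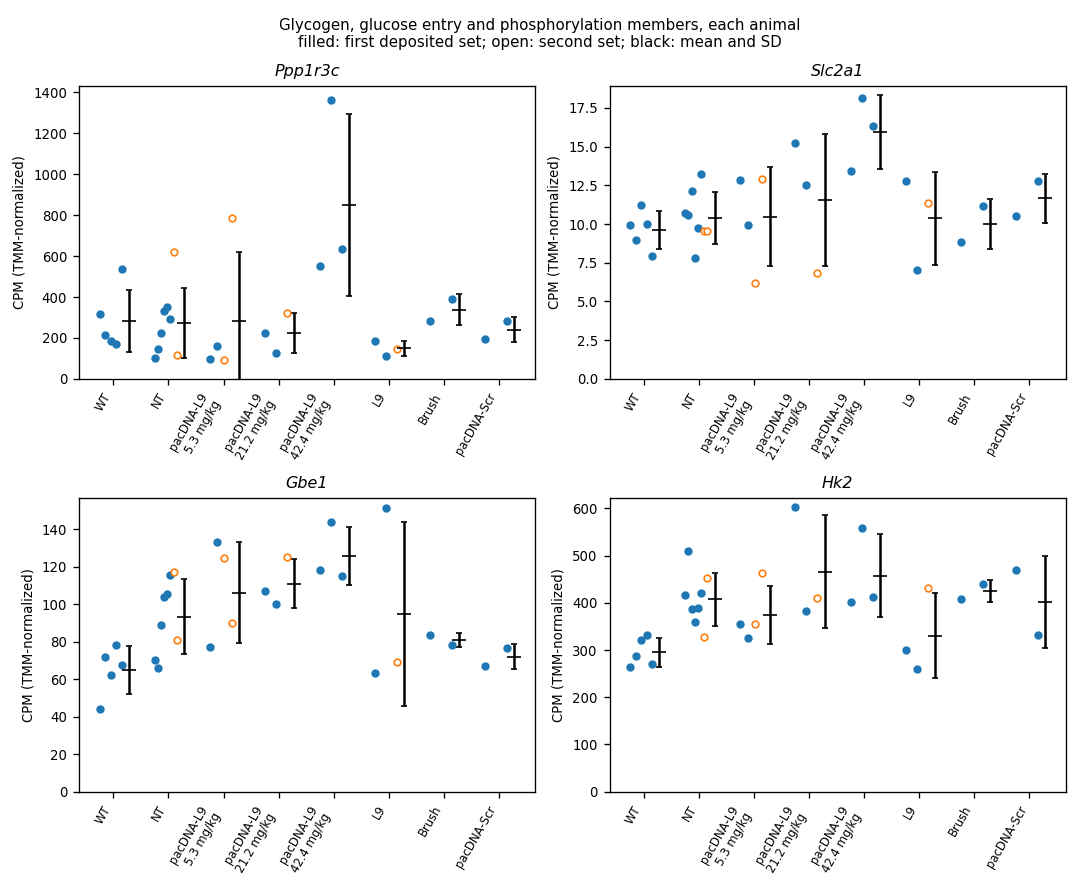
CPM per animal of Ppp1r3c, Slc2a1, Gbe1 and Hk2 in the 8 groups, with filled points for the first set, open points for the second and bars for the mean ± SD (the bar of Ppp1r3c at 5.3 mg/kg is cut at 0). Animal B at 42.4 mg/kg is the highest point for Ppp1r3c (1363 CPM) and Slc2a1 (18.1 CPM), and animal D stands alone at 5.3 mg/kg for Ppp1r3c (786 CPM).

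Animal B of the highest dose also stood apart for Pfkfb3, with 336 CPM beside 30.6 and 29.2 in the others and 26.0 to 85.1 in NT (+1.18, adjusted p = 0.402, edgeR). Members with a CTG run did not share a direction at this dose: Slc2a4 differed from NT by +0.16 (adjusted p = 0.841), Aldoa by +0.07, Pfkfb1 by 0.01, Slc16a3 by +0.77, Pfkfb3 by +1.18 and Pfkl by -0.29 on the log2 scale, none passing. Macrophage markers were higher at this dose, with 5 of 7 tested called higher than in NT and sums of 118 to 170 against 45.2 to 78.4 CPM, and the slow fibre sums were 193 to 2369 against 82.7 to 1593 CPM with 0 of 8 called. The macrophage sums also lay above the NT range at the low dose (87.2 to 107 CPM, 0 of 7 called) and in Brush (107 to 117 CPM, 0 of 7 called). They overlapped it at the middle dose (70.5 to 127 CPM, 1 of 7 called higher), with pacDNA-Scr (66.4 to 83.7 CPM, 0 of 7) and with L9 (41.1 to 64.7 CPM, 0 of 7). Plin4, of 8 adipocyte markers, and Myog, of 8 satellite cell and regenerating fibre markers, were called higher at the high dose. Their lists did not move with them as a whole. Only 2 of 8 adipocyte estimates lay above 0 (median log2 -1.30), and 4 of 8 satellite cell and regenerating fibre estimates did (median 0.21). The fast glycolytic sums were 102400 to 130200 CPM with 0 of 8 called. The part of these in the members' values was not tested.

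The highest dose was also set against WT, which asks where treated muscle stood relative to healthy muscle. It shares its treated animals with the comparison just given and its WT animals with the first. Here 6 of 39 members were called, 4 higher and 2 lower, against a background of 7.9% of tested genes (5.1% higher and 2.8% lower). Fbp2 was higher by 1.85 on the log2 scale (adjusted p = 0.00017, edgeR), Pfkfb1 by 0.85 (0.010), Gbe1 by 0.95 (0.012) and Hk2 by 0.63 (0.026). Gpd2 differed by -0.85 (0.019) and Gpd1 by -0.85 (0.042). Gys1 stood at +0.52 and did not pass (0.065), although all 3 animals lay above all WT animals. Without overlap between these groups 7 members were higher and 4 lower, against a background of 20.4%. Of 69 tested markers of fibre type and other cells, 12 were called, 10 higher and 2 lower. Of 7 tested macrophage markers 5 were higher. No slow fibre marker was called, although all 8 estimates lay above 0 (median log2 2.58). The part of these markers in the members' differences was not tested.

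The members that entered this list had these values at 42.4 mg/kg. Gbe1 measured 118, 144 and 115 CPM, all above the WT maximum of 78.5 and within or above the NT range. Hk2, the hexokinase, measured 401, 559 and 412 CPM, all above the WT maximum of 333. Gpd1 measured 412, 473 and 395 CPM, all below the WT minimum of 474. The Gbe1 and Hk2 differences from NT were +0.43 (95% interval -0.03 to 0.89) and +0.17 (-0.18 to 0.51). Without animal B, 2 members (Fbp2 and Pfkfb1) were called against WT, and without WT 2, 3 (Fbp2, Pfkfb1 and Gbe1). Over the 8 fits that each left out 1 library of these groups, Gpd1 was called in 1, and Gpd2 and Hk2 in 4 each. The Gpd1 call was also lost in 4 of 14 alternative fits. Within the first set and with naming as a covariate, Fbp2 and Hk2 were called.

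Carrying L9 on the polymer was compared with L9 alone at the same 5.3 mg/kg. None of the 39 members was called, where the background was 0.0114% of tested genes. Fbp2, at 36.9 to 50.1 CPM with pacDNA-L9 and 23.2 to 44.0 with L9, and Gpd2, at 116 to 176 and 144 to 248 CPM, overlapped. The log2 difference of Gys1 was +0.11 (95% interval -0.27 to 0.49) and that of Gpd2 -0.41 (-0.89 to 0.07). Library L9 B was the lowest of the L9 animals for Fbp2 and Gys1 and the highest for Gpd2, and without it again 0 members were called.

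pacDNA-L9 at 5.3 mg/kg was set against pacDNA-Scr, which carries another sequence on the same polymer at the same dose. None of the 39 members was called, with a background of 0%. Gys1 differed by -0.12 (95% interval -0.54 to 0.31) and Gpd2 by -0.21 (-0.75 to 0.33) on the log2 scale. With 2 scrambled animals these intervals were wide, and any difference within them was compatible with these data.

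Beyond the 39 members, 105 further genes of the pathway and its control were listed and 96 tested. In NT against WT 10 of the 96 were called, 7 higher and 3 lower, where the background was 4.97% of all tested genes (3.44% higher and 1.54% lower). Tbc1d1, which restrains GLUT4 movement to the surface, rose (+1.40, adjusted p = 0.0012, edgeR) while the related Tbc1d4 fell (-0.86, adjusted p = 0.013). Among the others called higher were Eno2 (+1.18), Pdk3 (+0.73), Got2 (+0.53), Minpp1 (+0.48) and Pdhx (+0.31), and also lower were Gfpt1 (-0.54), the first enzyme of hexosamine synthesis, and Epm2a (-0.46), which codes for the glycogen phosphatase laforin. Of these calls, that of Pdhx was lost in 9 of 16 alternative fits, that of Pdk3 in 6 and those of Eno2, Got2 and Gfpt1 in 4 each. Those of Minpp1 and Epm2a were lost in 2 each and that of Tbc1d1 in 1, whereas that of Tbc1d4 was kept in all 16. Over 13 fits that each left out 1 library, Pdhx and Eno2 were called in 4 each, Got2 in 5, Pdk3 in 6 and Gfpt1 in 7.

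At 42.4 mg/kg against NT 5 of the 96 were called, all higher (background 1.92% higher). Pdk4, the kinase that shuts pyruvate dehydrogenase, had 282 ± 269 CPM in NT (n = 8) and 3849 ± 876 at this dose (n = 3), a log2 difference of +3.77 (adjusted p = 0.0051, edgeR). Pdp2, the phosphatase that acts against it, rose by +1.48 (adjusted p = 0.0034), Foxo1, a fasting-responsive transcription factor, by +1.91 (0.00024), Ppargc1a, a coactivator of mitochondrial genes, by +1.46 (0.0013) and Tbc1d1 by +1.33 (0.0068). For each of the 5 the groups did not overlap. Of the 105 listed genes, 8 were higher and 2 lower without overlap, against a background of 7% of tested genes. Without animal B the calls of Pdk4 (adjusted p = 0.0559), Tbc1d1 (0.188) and Ppargc1a (0.128) were lost, and without animal C that of Pdp2 (0.0905). Within the first set and with naming as a covariate, Foxo1 passed (adjusted p = 0.0465), and Pdk4 (0.203), Pdp2 (0.0862), Tbc1d1 (0.199) and Ppargc1a (0.093) did not.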

How the data were processed

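Reads of 30 poly(A) libraries (paired-end, NovaSeq) were trimmed and aligned by the authors to GRCm39; the labels name HISAT2 2.0.5 and DESeq2, and the counting options are not given in the sources used here. The deposited values are raw read counts per Ensembl gene, and 0 columns of per-sample values went unused. Symbols and coordinates came from GENCODE vM39, which matched 56017 of 56748 genes.

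The members, lists and tests were chosen with earlier results of these data known. Counts were filtered with filterByExpr over the 8 groups, scaled by TMM and fitted over all 30 libraries with edgeR 4.0.16 (R 4.3.3), robust quasi-likelihood, 1 coefficient per group and no covariate, with Benjamini-Hochberg adjustment over 17518 genes and a threshold of 0.05. A standard error is the size of the log2 fold change divided by the square root of F. The script was tested on simulated counts. CPM values use TMM library sizes. Each member could be named; values per animal are given for members called in any comparison and for the highest member per length in each role, and values of 4 further members (Ppp1r3c, Slc2a1, Slc16a1 and Slc16a3) were added after their results were seen. Other pathway genes are named where called in NT against WT or at 42.4 mg/kg against NT. A called pathway gene and a repeat site that these rules would include are not reported here.

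Alternatives comprised size factors of DESeq2 1.42.0 and its Wald test, other filters, library subsets, covariates for set, sex by counts and naming, only the groups compared, each replicate left out and, for numbers 1 to 4, a replicate block (1 WT column carries no number). Summing members with near-identical copies was added after seeing the data. The labels describe individual muscle sections but do not number the mice, and libraries were treated as separate animals; p-values measure the spread between these libraries. No 2 libraries agreed within sampling noise. Depth sets the precision of low genes, and intervals of shares cover counting error only.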

Additional observations from a re-analysis of the deposited data

Results flagged for a closer look

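Single animals stood far from the rest of their group in 9 of 117 tests of a member's CPM within a group of 4 to 8 animals, by the ratio of the gap to the range; chance gives about 5% of such tests. Among WT animals, Phkg1 was lowest in the unnumbered animal (376 CPM, nearest 464) and Slc2a4 was lowest in WT 1 (392 CPM, nearest 578). Among NT animals, NT 4 was highest for the liver-type phosphofructokinase Pfkl (45.5 CPM, nearest 15.7) and for Eno1 (152 CPM, nearest 80.5), and NT 2 was highest for Aldoc (0.47 CPM, nearest 0.23). At 5.3 mg/kg pacDNA-L9, animal B was highest for Pfkl (46.3 CPM, nearest 15.8) and Pgm2 (3.32 CPM, nearest 1.98), animal A was highest for Ldha (3178 CPM, nearest 2612) and animal D was highest for Ppp1r3c (786 CPM, nearest 163). The adipocyte marker Plin1 was also highest in NT 4 among NT animals (122 CPM, nearest 16.4) and in low dose animal B (88.7 CPM, nearest 16.9). The adipocyte markers Adipoq, Cidec, Fabp4, Lep, Retn and Cfd were likewise highest in these animals of their groups. Plin4, the remaining marker of that list, was highest in low dose animal B (248 CPM) but not in NT 4 (211 CPM). The part of adipocytes in these values was not tested.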

How the results depend on the processing

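In NT against WT, 3 to 6 members were called over 16 alternatives and 3 to 5 over 13 fits that each left out 1 library; Fbp2, Gys1 and Pfkfb1 passed in all of these. For WT and NT animals of the same number, 1 to 4, deviations from the group means correlated at 0.18, 0.013, 0.039 and 0.22. Animals of unlike numbers were not compared, so these values cannot tell whether any WT and NT animals were paired. With the replicate block 3 members were called (Gpd2 lost, adjusted p = 0.052, edgeR) and with the same libraries and no block 4. At 42.4 mg/kg against NT, 1 member (Ppp1r3c) was called in the first set alone, with the 5 libraries without mitochondrial counts left out, with set as a covariate and with DESeq2's Wald test, and 2 (Slc2a1, adjusted p = 0.046, and Slc16a1, 0.0421) with only the groups compared; leaving out 1 library gave 0 throughout. At 42.4 mg/kg against WT, 2 were called in the first set with naming as a covariate and 10 with only the groups compared, and 2 to 5 with 1 library left out. With mitochondrial genes left out the members' share was 6.10% in WT, 6.13% in NT, 5.10% at the low, 5.35% at the middle and 6.14% at the high dose, 5.49% in L9, 6.51% in Brush and 6.15% in pacDNA-Scr. The cause of these shifts was not tested. Depth limits Aldoc and Pgm2. Gapdh shares near-identical sequence with its copies, and the sum of both differs between the sets; the cause was not tested.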
